A study of Mus musculus with 28 samples.

Results

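Cornified envelope genes were followed in the p63 knockout mouse through 10 members, namely Flg, Hrnr, Rptn, Lor, Ivl, Evpl, Ppl, Tgm1, Tgm3 and Asprv1. They were found by gene symbol in the array's annotation, which gives 16 probe sets, and each gene was read by its probe set with the highest mean over all arrays. These are 10 of 18193 genes with a probe set of 1 symbol, and all 10 were among the 13613 genes that passed a filter on low values. The filter keeps a probe set whose value exceeds the median of its array on 2 or more of the 28 arrays. Evpl met it on all 28 arrays, Ppl on 18, Ivl on 14, Lor on 13, Tgm1 on 11, Asprv1 on 5, Rptn and Tgm3 on 4 each, Hrnr on 3 and Flg on 2. Flg and Hrnr would not have entered without the 2 arrays of wild-type proximal stomach, where they were high, so their tests that involve this group are given from a fit with no filter, over 18193 genes.

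The arrays are Affymetrix mouse 430 2.0 chips hybridised with total RNA of Balb/c embryos, 14 from p63 KO and 14 from wildtype (WT). Bladder was taken from KO and WT at embryonic days 15, 18 and 19 (E15, E18, E19), and 4 parts of the gut from KO and WT at E18, namely proximal and distal stomach and small and large intestine. Every combination has 2 arrays, which makes 14 groups. p63, encoded by Trp63, is a transcription factor of stratified epithelia. Which allele was used, how tissue was dissected and how many animals gave it is not stated in the sources used here. No label calls the 2 arrays of a group separate animals, and the p-values therefore describe the spread between samples, which may be technical. Values are log2 signals, a difference is a difference of 2 group means on that scale, SE is its standard error in limma, and p is limma's p adjusted over 13613 genes by the method of Benjamini and Hochberg. A gene passed the test at an adjusted p under 0.05. With 2 arrays against 2, an exact permutation test cannot give a p below 0.333, so each call rests on the spread that limma pools over groups and genes. Levels of different genes come from different probes and are not set against each other.

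The arrays were alike in scale. Their medians lay between 7.48 and 7.86, and the 2 arrays of a group correlated across the genes past the filter at 0.980 to 0.994. The difference between the 3' and 5' probe sets of actin, which grows as RNA is degraded, was 1.33 and 1.12 in KO bladder E15, against 0.69 and 0.78 in WT bladder E15. In proximal stomach it was 0.48 and 0.61 in KO, against 0.97 and 0.88 in WT, and the other arrays lay between 0.51 and 0.92. RNA quality thus went with genotype in these 2 tissues. The Trp63 probe set with the highest mean read 13.72 in KO and 13.24 in WT proximal stomach. In bladder it averaged 10.14 in KO and 10.75 in WT at E15, 11.32 in KO and 12.41 in WT at E18, and 9.53 in KO and 11.97 in WT at E19. Where its probes lie with respect to the deleted part is not stated, and these levels thus check nothing about the allele. Squamous keratin markers marked the WT proximal stomach, where 0 of 6 lay below the array median on both arrays. Of the uroplakins 0 of 5 did in KO or WT bladder at any of the 3 stages. By that count 1 of 5 did in KO proximal stomach, KO large intestine and WT distal stomach. Mean uroplakin levels were 12.64 to 13.80 in bladder arrays and 11.25 and 11.40 in KO proximal stomach. In the other groups they were 7.87 to 8.97.

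The cornified envelope is a sheet of protein that replaces the plasma membrane of the outermost cells of a stratified squamous epithelium. Envoplakin (Evpl) and periplakin (Ppl), desmosome-linked plakins, form its first scaffold together with involucrin (Ivl). Transglutaminases such as Tgm1, a membrane-bound enzyme, and Tgm3, a soluble one activated by proteolysis, crosslink these proteins and then loricrin (Lor), the glycine-rich main component of the finished envelope in epidermis. Filaggrin (Flg), hornerin (Hrnr) and repetin (Rptn) are S100-fused proteins with long repeats, made in the granular layer and stored in granules or bound to keratin. Asprv1 is a retroviral-like aspartic protease that cleaves profilaggrin. In the mouse, the proximal stomach (forestomach) is lined by a cornifying squamous epithelium and the distal stomach by glandular epithelium. The bladder has a urothelium, which does not cornify.

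In the RefSeq annotation of GRCm38.p6, Lor lies at chr3:92080271-92083142, Ivl at chr3:92570899-92573790, Flg at chr3:93273546-93293689, Hrnr at chr3:93319749-93333572 and Rptn at chr3:93393699-93399442. These 5 genes share the epidermal differentiation complex, and Flg, Hrnr and Rptn follow each other on the + strand. Tgm3 lies at chr2:129987794-130050399, Asprv1 at chr6:86628174-86629710, Evpl at chr11:116220559-116238165, Tgm1 at chr14:55700009-55713921 and Ppl at chr16:5086291-5132481. RefSeq promoters of GRCm38.p6 were matched for 8 of the 10 members. They give 9 promoters, since Tgm1 has 2, while Evpl and Ppl were not matched. For Tgm3, Ivl and Tgm1 the start used is not an end of the gene interval given above. That of Tgm3, chr2:130012340, lies inside its interval. The 150 bases before the start of transcription are printed because of the letters they hold. Genes of the complex, and Tgm3 outside it, differ here from Tgm1 and Asprv1. The second promoter of Tgm1 holds none of the motifs marked below and is not printed. Capitals mark the TATA box motif TATAAA. They also mark TGANTCA, the core of an AP-1 site. In Asprv1 and Tgm1 they mark GGGCGG, an Sp1-type box, on either strand.
Flg promoter, chr3:93273396-93273545, + strand: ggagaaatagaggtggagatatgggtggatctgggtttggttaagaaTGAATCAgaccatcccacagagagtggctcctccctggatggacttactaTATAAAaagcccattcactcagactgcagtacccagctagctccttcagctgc
Hrnr promoter, chr3:93319599-93319748, + strand: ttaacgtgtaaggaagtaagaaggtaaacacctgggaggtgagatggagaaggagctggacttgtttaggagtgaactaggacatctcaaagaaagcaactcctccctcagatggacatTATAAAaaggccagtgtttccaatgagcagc
Rptn promoter, chr3:93393549-93393698, + strand: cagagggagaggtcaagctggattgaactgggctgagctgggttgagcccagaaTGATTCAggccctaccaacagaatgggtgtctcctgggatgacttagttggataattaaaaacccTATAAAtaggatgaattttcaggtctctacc
Lor promoter, chr3:92083143-92083292, - strand: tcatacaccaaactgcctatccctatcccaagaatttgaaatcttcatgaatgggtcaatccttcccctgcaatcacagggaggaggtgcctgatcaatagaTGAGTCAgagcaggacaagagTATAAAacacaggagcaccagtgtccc
Ivl promoter, chr3:92573736-92573885, - strand: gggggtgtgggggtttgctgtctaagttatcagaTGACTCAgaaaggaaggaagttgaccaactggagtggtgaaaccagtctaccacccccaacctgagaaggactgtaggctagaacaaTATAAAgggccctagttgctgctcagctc
Tgm3 promoter, chr2:130012190-130012339, + strand: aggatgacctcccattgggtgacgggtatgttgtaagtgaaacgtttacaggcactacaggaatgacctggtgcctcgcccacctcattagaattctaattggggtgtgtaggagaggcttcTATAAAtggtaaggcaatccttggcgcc
Asprv1 promoter, chr6:86628024-86628173, + strand: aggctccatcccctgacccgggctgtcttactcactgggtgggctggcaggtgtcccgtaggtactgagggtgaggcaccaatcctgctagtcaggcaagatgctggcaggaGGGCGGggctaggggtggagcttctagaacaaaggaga
Tgm1 first promoter, chr14:55713493-55713642, - strand: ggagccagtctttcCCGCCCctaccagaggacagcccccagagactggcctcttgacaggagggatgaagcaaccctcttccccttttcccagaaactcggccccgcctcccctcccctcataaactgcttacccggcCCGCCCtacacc

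A script searched 9 motifs on both strands in the 300 bases from 250 before to 50 after each start. TATAAA was present for Flg, Hrnr, Rptn, Lor, Ivl and Tgm3, which is 6 of 8 genes, and in 13.6% of 32851 mouse promoters of the same length. On the printed strand it began 35 to 25 bases before the start for Hrnr, Rptn, Lor, Ivl and Tgm3, and for 1.75% of all promoters, and at 53 bases before it for Flg. TGANTCA was present for Flg, Rptn, Lor and Ivl, beginning 103, 96, 48 and 116 bases before the start, and in 7.81% of all promoters. GGGCGG was present for Asprv1 and for the first promoter of Tgm1, and in 35.7% of all promoters. A decamer of the p53 family, the class of site that p63 binds, was found for Hrnr alone, at 93 bases before the start, and in 8.36% of all promoters. CACCC was present for 7 genes (57.5% of all promoters), GGAAGT for Flg, Hrnr, Ivl and Rptn (23.8%), TAATTA for Rptn (5.29%), and AACCGGTT (0.146%) and GCCNNNGGC (16.6%) for none of the 8. These motifs are matches of letters, and none is shown to be a site.

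All 10 genes were higher in WT proximal stomach than in WT distal stomach, against 40.4% of genes tested that passed in either direction and 18.2% that were higher. The differences were 8.95 for Flg, 9.75 for Hrnr, 8.94 for Rptn, 9.07 for Lor, 2.19 for Ivl, 4.61 for Evpl, 5.97 for Ppl, 6.42 for Tgm1, 5.34 for Tgm3 and 7.26 for Asprv1 (adjusted p of 9.0e-21 for Flg and 4.25e-12 for Hrnr in the fit with no filter, and between 8.3e-16 and 5.8e-06 for the other 8). The members' median was 6.84, while the median of all genes tested was -0.05. Against WT bladder E18, 9 of the 10 were higher in WT proximal stomach, and Ivl was lower by a difference of -2.89 (SE 0.31, adjusted p = 1.5e-07), where 46.6% of genes tested passed and 22.4% were higher. WT proximal stomach was the highest of the 14 groups for 9 of the 10 genes, and for all 9 its arrays lay above those of the next group, as they did for 5.84% of genes tested. That next group was KO proximal stomach for Rptn, Evpl, Ppl, Tgm1, Tgm3 and Asprv1, and KO large intestine for Hrnr and Lor. These comparisons share the WT proximal stomach arrays with the knockout comparison described next. Flg and Hrnr passed the filter only with those arrays, so their high level there was a condition of entry. The shares beside these counts are over genes past the filter.

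**Figure D1:**
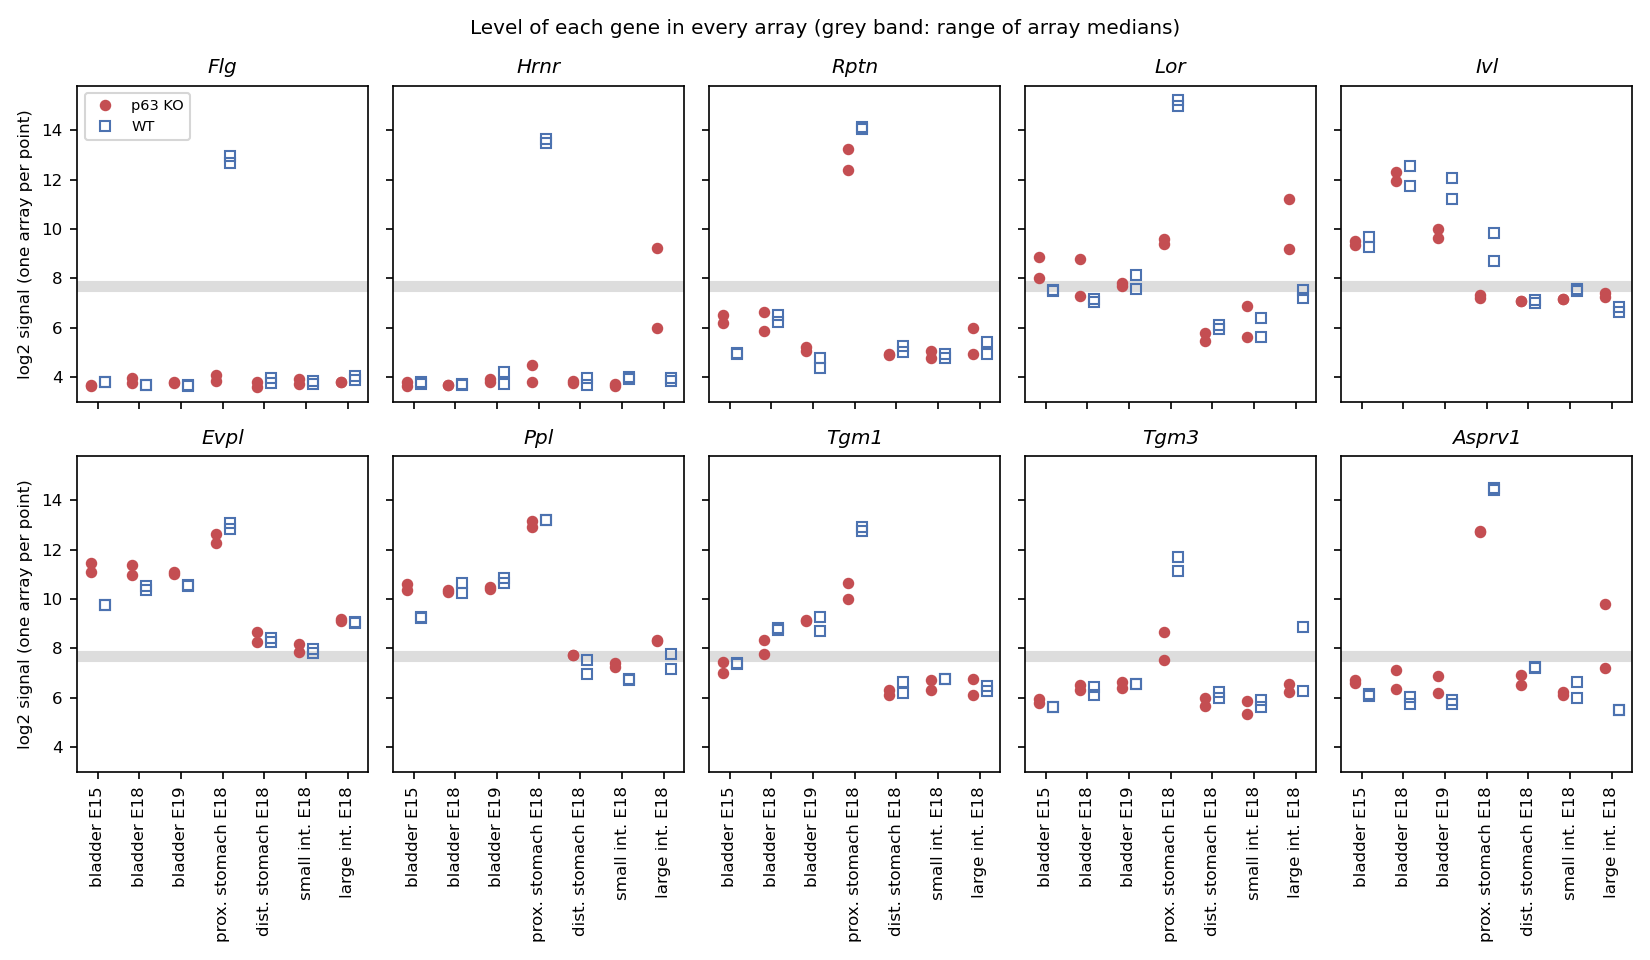
Log2 signal of the 10 genes in each of the 28 arrays, 1 panel per gene, with tissues and stages along the horizontal axis, p63 KO as filled circles left of WT as open squares, and a grey band for the range of the array medians (7.48 to 7.86). Flg lay near 4 on all arrays but the 2 of WT proximal stomach (12.96 and 12.66), Ivl had its highest values in bladder E18, and Hrnr, Lor and Asprv1 were raised in KO large intestine, most in replicate 2 (9.21, 11.23 and 9.79).

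In the proximal stomach 9 of the 10 genes fell in KO, and Ppl did not pass. Of all genes tested there, 32.7% passed and 14.6% were lower. The members' median difference was -2.25, against 0.02 over all genes tested. The KO arrays lay below the WT arrays for all 10 genes, Ppl included, as they did for 28.6% of genes tested. In bulk tissue, fewer cells of a type and less RNA per cell cannot be told apart. With no filter on low values the count was again 9 of 10, where 26.3% of 18193 genes passed and 12.4% were lower. RNA quality went with genotype here, and with the actin 3' minus 5' covariate 6 of the 10 genes passed, without Rptn, Evpl and Asprv1, and 2059 of 13613 genes passed in place of 4448.

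Among the S100-fused proteins, Flg had 4.08 and 3.82 in KO, against 12.96 and 12.66 in WT. The KO values were close to those of the 24 arrays of the other tissues, which ranged from 3.57 to 4.03. The difference was -8.86 (SE 0.14, adjusted p = 2.1e-20 in the fit with no filter). Hrnr had 4.48 and 3.77 in KO, against 13.64 and 13.49 in WT, a difference of -9.44 (SE 0.54, adjusted p = 1.4e-11 in the fit with no filter). Thus both reached in KO the low level that they had in WT distal stomach, where the differences (KO proximal minus WT distal) were 0.10 (95% confidence interval -0.33 to 0.52) for Flg and 0.31 (-0.85 to 1.47) for Hrnr. Rptn, their neighbour on chromosome 3, had 12.39 and 13.23 in KO, against 14.05 and 14.13 in WT. It fell by 1.28 (SE 0.32, adjusted p = 0.0038) and stayed 7.67 above WT distal stomach (SE 0.32, adjusted p = 1.2e-13). Its other probe sets differed between KO and WT by -1.04 and 0.22, the second above the array median on 0 arrays. Its call was lost with an actin 3' minus 5' covariate (difference -1.16, adjusted p = 0.145) and without KO replicate 1 (-0.85).

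Lor and Ivl, the substrates of crosslinking, both fell. Lor had 9.40 and 9.60 in KO, against 15.22 and 14.97 in WT, a difference of -5.60 (SE 0.52, adjusted p = 2.3e-08). Its 2 other probe sets differed by -4.43 and -4.98. Lor in KO proximal stomach was still 3.47 above WT distal stomach (SE 0.52, adjusted p = 2.0e-05). Ivl had 7.21 and 7.31 in KO, against 9.84 and 8.68 in WT, a difference of -2.00 (SE 0.31, adjusted p = 2.9e-05). The other Ivl probe set differed by -3.39. Both KO values of Ivl lay below the array median, and KO proximal stomach minus WT distal stomach was 0.19 (95% confidence interval -0.45 to 0.84).

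The plakins of the scaffold changed least. Evpl had 12.28 and 12.64 in KO, against 13.07 and 12.82 in WT, and fell by 0.49 (SE 0.17, adjusted p = 0.0363). That call was lost with array weights, with the actin covariate (-0.38, adjusted p = 0.421), without KO replicate 1 (-0.31) and without WT replicate 1. Ppl had 12.92 and 13.18 in KO, against 13.23 and 13.19 in WT, a difference of -0.16 (95% confidence interval -0.56 to 0.24, adjusted p = 0.572). Both genes kept most of their distance from WT distal stomach, with KO proximal minus WT distal differences of 4.13 for Evpl and 5.81 for Ppl.

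Both transglutaminases fell. Tgm1 had 10.02 and 10.67 in KO, against 12.90 and 12.78 in WT, a difference of -2.50 (SE 0.26, adjusted p = 1.9e-07). Tgm3 had 7.53 and 8.66 in KO, against 11.72 and 11.15 in WT, a difference of -3.34 (SE 0.50, adjusted p = 2.1e-05). Its other probe set differed by -3.62. The protease gene Asprv1 had 12.72 and 12.77 in KO, against 14.44 and 14.53 in WT, and fell by 1.74 (SE 0.48, adjusted p = 0.0080), a call that the actin covariate took away at a difference of -1.90 (adjusted p = 0.109). In KO proximal stomach 7 of the 10 genes remained higher than in WT distal stomach, namely all but Flg, Hrnr and Ivl, and 32.9% of genes tested passed in that comparison, 16.1% as higher. The plot of differences in proximal stomach and bladder shows this split.

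**Figure D2:**
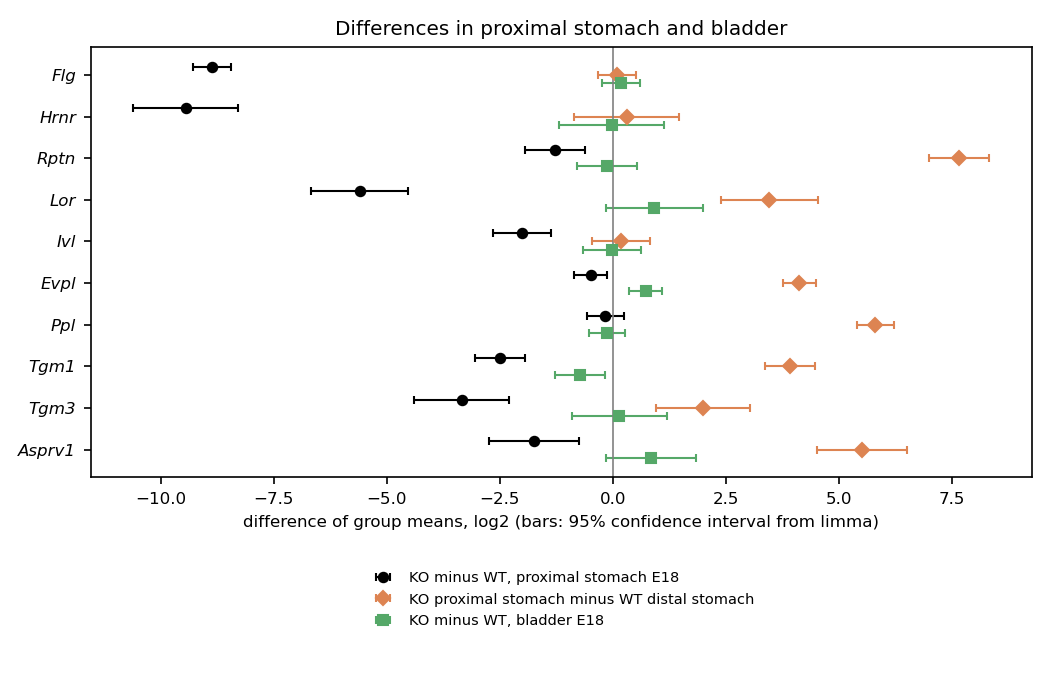
Differences of group means on the log2 scale for the 10 genes, with bars for limma's 95% confidence interval: KO minus WT in proximal stomach (circles), KO proximal stomach minus WT distal stomach (diamonds) and KO minus WT in bladder E18 (squares). Flg and Hrnr fell by 8.86 and 9.44 and met the distal stomach's level, whereas Ppl at -0.16 and Evpl at -0.49 lay near 0 and 5.81 and 4.13 above the distal stomach.

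The knockout difference in proximal stomach was set against that in bladder E18 by a test of the difference itself. It was lower in proximal stomach for 8 of the 10 genes, where 22.8% of genes tested passed and 10.4% were lower. The values were -9.42 for Hrnr, -9.04 for Flg, -6.52 for Lor, -3.49 for Tgm3, -2.59 for Asprv1, -1.99 for Ivl, -1.77 for Tgm1 and -1.21 for Evpl (adjusted p of 1.5e-17 for Flg and 9.98e-09 for Hrnr in the fit with no filter, and between 9.2e-07 and 0.0082 for the other 6). Rptn (-1.15, adjusted p = 0.0732) and Ppl (-0.04, 95% confidence interval -0.61 to 0.53, adjusted p = 0.946) did not pass. The count of 8 holds Flg and Hrnr, which passed the filter only with the WT proximal stomach arrays. The shares are over genes past the filter. Flg, Hrnr, Tgm3 and Asprv1 lay below the array median on all 12 bladder arrays, which limits what a fall in bladder could show.

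Other genes of cornification followed in KO proximal stomach. Over all 69 genes tested in these lists 45 fell and 8 rose, beside 14.6% of all genes tested that were lower and 18.1% that were higher. The lists were chosen with earlier results of these data known. Of 11 other cornified layer proteins 10 fell and 0 rose, with a median of -4.22. Cdsn, the corneodesmosome protein, fell by 9.08 to 4.43 ± 0.13 in KO, against 13.51 ± 0.09 in WT (SD, n = 2 each). Crct1 fell by 8.66, Calm4, a calmodulin-like protein, by 8.10, and Lgals7, the galectin of stratified epithelia, by 6.17. Of 14 genes for the lipid envelope and barrier lipids 12 fell and 1 rose, with a median of -3.63. Lipm and Lipk, lipases, fell by 7.96 and 5.38, Pnpla1, which makes acylceramides, by 6.35, and Sdr9c7, a dehydrogenase, by 6.13, while Asah1, an acid ceramidase, rose by 0.70.

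Of 12 proteases that process profilaggrin or shed corneocytes 8 fell and 1 rose. The kallikreins Klk5, Klk7 and Klk8 fell by 5.08, 4.03 and 4.02 and Pcsk6, a proprotein convertase, by 2.08, while St14 (matriptase) rose by 0.49. Klk5 was 5.51 ± 0.13 in KO, against 10.59 ± 2.05 in WT (SD, n = 2 each), so its 2 WT arrays were far apart. The 4 protease inhibitors split. Spink5, the inhibitor of epidermal kallikreins, fell by 7.76 (adjusted p = 3.6e-12) and Cst6, a cystatin that restrains cathepsins, by 4.93, whereas Spint1 and Spint2, inhibitors of membrane serine proteases, rose by 1.01 and 0.92.

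The smaller lists are to be read against the 32.7% of all genes tested that passed. Of 4 other transglutaminases Tgm5 alone passed, with 6.27 ± 0.33 in KO, against 8.65 ± 0.12 in WT (difference -2.38, adjusted p = 1.7e-08). Tchh, trichohyalin, the 1 other S100-fused gene that passed the filter, rose by 2.48 to 10.86 ± 0.41 in KO, against 8.38 ± 0.22 in WT (adjusted p = 1.2e-06), opposite in sign to Flg and Hrnr. Neither of the 2 peptidylarginine deiminases tested passed, with Padi1 at 0.13 (adjusted p = 0.836) and Padi2 at -0.20 (adjusted p = 0.56). Of 5 other plakins Eppk1 and Macf1 fell by 1.10 and 0.64 and Plec, plectin, rose by 0.81. Of 16 regulators of terminal differentiation 10 fell and 2 rose. Tfap2a fell by 5.85 and Gata3 by 3.82, Ovol1 fell by 1.82, and the epithelial ETS factor Elf3 rose by 1.88.

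**Figure D3:**
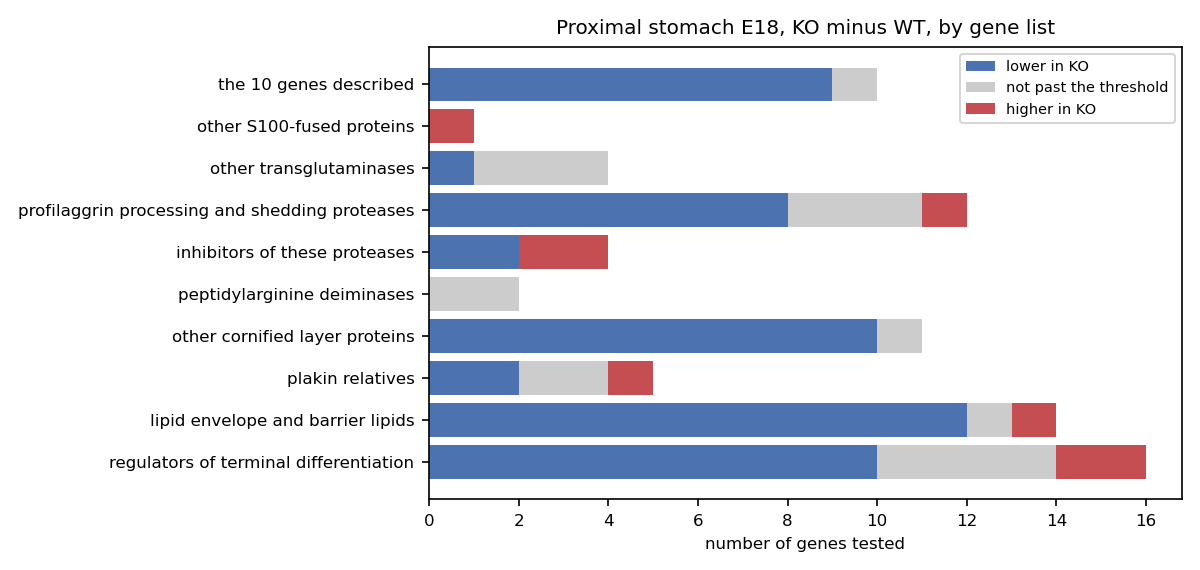
Number of genes tested in each list in proximal stomach, split into those lower in KO (blue), not past the threshold (grey) and higher in KO (red). The cornified layer proteins (10 of 11) and the lipid list (12 of 14) were mostly lower, as were 9 of the 10 genes described, while the protease inhibitors split 2 and 2.

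Markers of other epithelia moved in the same tissue. All 8 markers of simple columnar epithelium were higher in KO proximal stomach, with a mean level of 13.43 and 13.51 in KO arrays, against 9.95 and 10.51 in WT arrays. Of 5 urothelial markers 4 were higher and of 7 gastric glandular markers 5 were. Of 7 basal markers 4 were lower, among them Krt5 at -5.80, and of 6 squamous suprabasal keratins 3 were lower, led by Krt1 at -7.11. Among the 8 markers of epidermis, hair follicle and melanocyte, 8 lay below the array median in KO and in WT proximal stomach. The part of these shifts in the members' differences was not tested.

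In bladder, Flg and Hrnr were at the low end throughout. Flg read 3.62 to 3.96 and Hrnr 3.64 to 4.22 on the 12 bladder arrays, all below the array median. Ivl, by contrast, reached its highest level of all groups in bladder E18 by the probe set used here. It had 12.33 and 11.96 in KO, against 12.56 and 11.74 in WT. The arrays of KO bladder E18, WT bladder E18 and WT bladder E19 overlapped, and KO bladder E19 lay below all 3. By the other Ivl probe set the highest mean was that of WT bladder E19 (13.09). That probe set read 12.50 in KO and 12.55 in WT bladder E18, so the highest stage depends on the probe set.

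Between E15 and E18, 5 of the 10 genes rose in WT bladder, by 2.68 for Ivl, 1.41 for Rptn, 1.39 for Tgm1, 1.20 for Ppl and 0.70 for Evpl, where 45% of genes tested passed and 17.1% were higher. In KO bladder 2 rose over the same interval, Ivl by 2.71 and Tgm1 by 0.83, where 46.7% of genes tested passed and 15.7% were higher. With the actin covariate 1 of these 2 KO calls remained, and 221 of 13613 genes passed in place of 6361. Between E18 and E19, 1 of 10 changed in WT (Rptn, -1.80), where 63.1% of genes tested passed and 36% were lower. In KO 3 of 10 changed (Ivl -2.32, Rptn -1.11 and Tgm1 1.08), where 60.5% passed. Rptn lay below the array median on all 12 bladder arrays. Its other probe sets went the other way, from 4.13 to 5.21 and 4.64 to 5.09 in WT. In KO they went from 4.30 to 4.75 and 4.58 to 4.70. The other Ivl probe set went from 12.50 to 11.88 in KO and from 12.55 to 13.09 in WT.

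At E15, Evpl, Ppl and Rptn were higher in KO bladder, 3 of the 10 genes, where 7.04% of genes tested passed and 4.55% were higher. Evpl had 11.48 and 11.11 in KO, against 9.75 and 9.76 in WT, a difference of 1.54 (SE 0.17, adjusted p = 5.4e-05). Ppl had 10.60 and 10.37 in KO, against 9.26 and 9.24 in WT, a difference of 1.23 (SE 0.19, adjusted p = 7.6e-04). Rptn had 6.19 and 6.51 in KO, against 4.96 and 4.94 in WT, a difference of 1.40 (SE 0.32, adjusted p = 0.0112). These Rptn values lay below the array median, and its other probe sets differed by 0.06 and 0.11. The KO arrays lay above the WT arrays for all 3, as they did for 33.8% of genes tested. The actin covariate left none of them past the test, with Evpl at 1.41 (adjusted p = 0.221), Ppl at 0.92 (adjusted p = 0.728) and Rptn at 1.25 (adjusted p = 0.925), and left 3 of 13613 genes in place of 959. Some columnar and urothelial markers moved the same way at E15, while the mean of the basal markers moved the other way. Of 8 markers of simple columnar epithelium 4 were higher in KO (Krt8, Krt18, Cldn3 and Epcam), with mean levels of 11.61 and 11.81 in KO arrays, against 11.02 and 11.06 in WT arrays. Of 5 urothelial markers 2 were higher (Upk3a, 0.73, and Upk3b, 0.80), with mean levels of 13.36 to 13.44 in KO arrays, against 12.67 to 12.76 in WT arrays. The mean level of the 7 basal markers was lower in KO, at 7.997 and 8.18 in KO arrays, against 8.64 and 8.65 in WT arrays. The part of these markers in the members' differences was not tested. Rptn also lost its call without KO replicate 1, without either WT replicate and when its probe sets were averaged. RNA quality and genotype cannot be told apart at this stage.

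At E18, Evpl was the 1 member that passed, with 11.37 and 10.98 in KO, against 10.55 and 10.35 in WT (difference 0.73, SE 0.17, adjusted p = 0.0227), where 3.24% of genes tested passed and 1.56% were higher. Its call was lost without KO replicate 1, without either WT replicate and when only the 4 arrays compared were used. At E19 Evpl had 11.08 and 11.03 in KO, against 10.59 and 10.55 in WT, and the difference of 0.49 did not pass (adjusted p = 0.0515). Evpl arrays of KO thus lay above those of WT at all 3 stages. Ppl did not pass at E18 (-0.12, 95% confidence interval -0.53 to 0.28) or at E19 (-0.29, -0.69 to 0.11). For Ppl the knockout difference at E18 was below that at E15 by 1.36 (difference -1.36, adjusted p = 0.0207), where 0.61% of genes tested passed and 0.382% were lower. That call was lost with the actin covariate and in 5 of the 8 settings that left out 1 array.

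At E19, Ivl fell in KO bladder and was the 1 member that passed, where 20% of genes tested passed and 6.5% were lower. It had 9.99 and 9.65 in KO, against 12.06 and 11.22 in WT, so the groups did not overlap. The difference was -1.82 (SE 0.31, adjusted p = 3.4e-04), and -1.21 by the other Ivl probe set. At E18 the difference had been -0.01 (95% confidence interval -0.65 to 0.64) and at E15 -0.04 (-0.68 to 0.61). The change of the knockout difference from E18 to E19 was -1.82 (SE 0.43, adjusted p = 0.0180), where 5.27% of genes tested passed and 1.29% were lower. It did not pass with the mean of the probe sets or in 4 of the 8 settings that left out 1 array. Basal markers were lower in KO bladder at the same stage, 7 of 7, with mean levels of 8.23 and 8.24 in KO arrays, against 10.97 and 11.30 in WT arrays. They were already lower at E18, 6 of 7, with 8.25 and 8.43 in KO arrays, against 10.56 and 10.90 in WT arrays, a stage at which Ivl differed by -0.01. Their part in the Ivl difference was not tested.

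Of the 69 genes tested in the other lists, 16 passed in bladder at E15 (23.2%, beside 7.04% of all genes tested), 7 at E18 (10.1%, beside 3.24%) and 15 at E19 (21.7%, beside 20%). Of all genes tested, 4.55% were higher and 2.49% lower at E15, 1.56% and 1.67% at E18, and 13.5% and 6.5% at E19. At E15, 2 of 4 protease inhibitors were higher in KO (Spint1, 1.35, and Spint2, 0.54), 2 of 12 proteases (Prss8, a membrane serine protease, 1.31, and St14, 0.82), 1 of 11 cornified layer proteins (Pof1b, an actin-binding protein, 1.26) and 2 of 5 other plakins (Dst, 0.53, and Plec, 0.33). Of 16 regulators 5 were higher, among them Ovol1 at 1.19 and Elf3 at 0.90, and 1 was lower. These calls fall under the same limit of RNA quality at E15. At E18, Scel, the envelope protein sciellin, was the 1 cornified layer protein of 11 that passed, lower by a difference of -1.21. It was again the 1 at E19 (-1.18). Prss8 (0.71) and the regulator Prdm1 (0.92) were also higher in KO at E18, and the regulator Nfe2l2 (-0.68) was lower. At E19, 4 of 16 regulators were higher, led by Ovol1 at 1.28 and Elf3 at 1.25, and 1 of 5 other plakins was lower (Dsp, desmoplakin, -0.57). Of 14 lipid genes 2 were higher and 1 lower at E15, 2 higher at E18, and 3 higher and 1 lower at E19. Cyp4f39, a fatty acid hydroxylase, was higher at all 3 stages, by 1.53, 1.04 and 1.60. Slc27a4, a fatty acid transporter, was higher at E15 and E19 (0.76 and 0.62), Elovl4, a fatty acid elongase, at E18 (1.21) and Abca12, a lipid transporter, at E19 (0.73), while Ugcg, a glucosylceramide synthase, was lower at E15 and E19 (-0.55 and -0.80). Padi1, a peptidylarginine deiminase, fell by 1.74 in KO bladder E19 to 6.28 ± 0.13, against 8.01 ± 0.17 in WT (SD, n = 2 each, adjusted p = 0.0045). Spint1 was higher in KO bladder at all 3 stages, by 1.35, 0.58 and 0.47. Flg, Hrnr, Lor, Tgm1, Tgm3 and Asprv1 did not pass between KO and WT bladder at any stage. Some of their differences were not small. Lor differed by 0.94 at E15, 0.92 at E18 and -0.11 at E19, and Asprv1 by 0.54, 0.85 and 0.70. Tgm1 at E18 had 7.76 and 8.34 in KO, against 8.73 and 8.83 in WT (-0.73, adjusted p = 0.166).

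**Figure D4:**
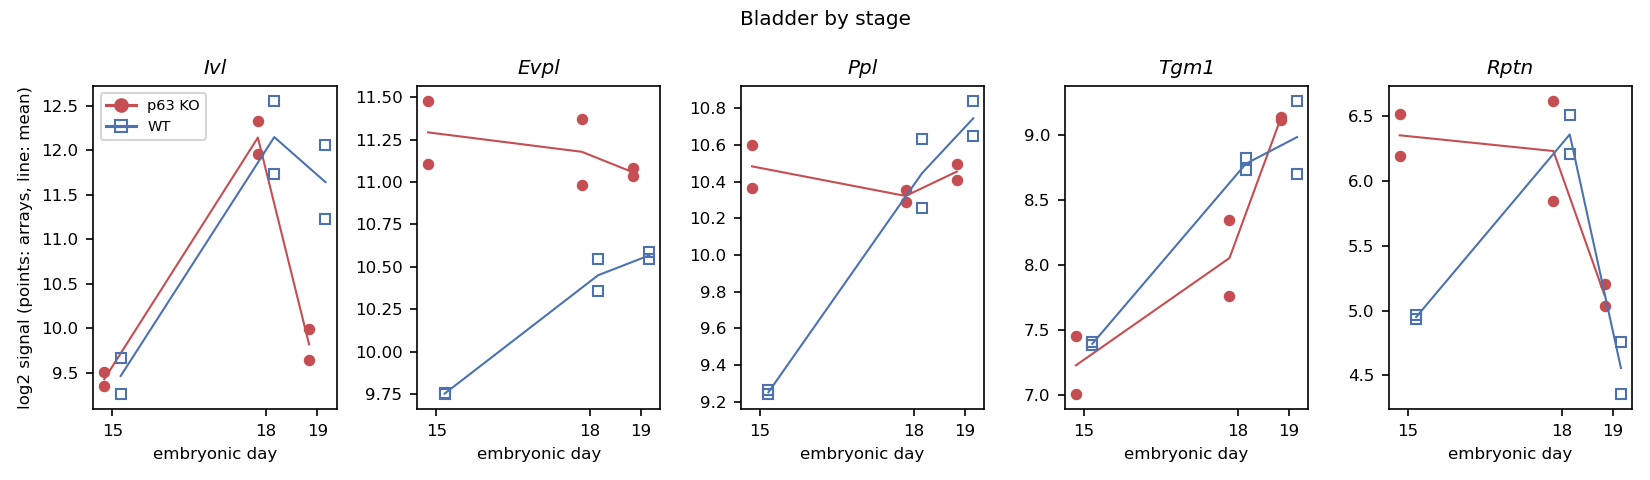
Log2 signal in bladder by embryonic day for Ivl, Evpl, Ppl, Tgm1 and Rptn, with p63 KO arrays as filled circles and WT arrays as open squares, and lines through the means of the 2 arrays. Ivl was alike in KO and WT at E15 and E18 and at E19 lay at 9.99 and 9.65 in KO, below 12.06 and 11.22 in WT, while Evpl was above WT at all 3 stages.

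In distal stomach and small intestine 0 of 10 members passed, and 0% of genes tested did. At an unadjusted p under 0.05 there was 1 member in each, Ppl, with differences of 0.50 (95% confidence interval 0.09 to 0.90) in distal stomach and 0.58 (0.17 to 0.98) in small intestine. Of all genes tested, 3.88% in distal stomach and 4.6% in small intestine did so. These tissues had no member above the array median on any array except Evpl.

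In large intestine Hrnr, Lor and Asprv1 were higher in KO, 3 of the 10 genes, where 0.0882% of genes tested passed and 0.0588% were higher. Hrnr had 6.0 and 9.21 in KO, against 3.84 and 3.95 in WT, a difference of 3.71 (SE 0.56, adjusted p = 0.0055). Lor had 9.20 and 11.23 in KO, against 7.20 and 7.53 in WT, a difference of 2.85 (SE 0.52, adjusted p = 0.0228), and its 2 other probe sets differed by 2.22 and 2.39. Asprv1 had 7.19 and 9.79 in KO, against 5.50 and 5.50 in WT, a difference of 2.99 (SE 0.48, adjusted p = 0.0114). For all 3, KO replicate 2 was highest, KO replicate 1 next, and the WT arrays were below both. The 2 KO arrays were thus far apart. The share of all genes tested with that order of arrays was not counted.

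In all, 12 genes passed in large intestine. The 8 higher ones were Sprr2d, Lce3f, Hrnr, Asprv1, Krtdap, Sprr1b, Sprr2h and Lor, and the 4 lower ones Dsc3, Slc7a9, Iyd and Alpi. The Sprr, Lce and Krtdap genes encode other proteins of the cornified layer, and Alpi is an intestinal alkaline phosphatase. These 9 genes that are no members are named because they are the whole of what passed, after their values were seen. The 11 other cornified layer proteins had a mean level of 7.28 and 8.35 in KO replicates 1 and 2, against 6.96 and 6.89 in WT. KO replicate 2 was the highest array for 9 of 11, of which 1, Krtdap, passed. It was the highest for 2 of 6 squamous suprabasal keratins and 0 of 7 basal markers. For markers of epidermis, hair follicle and melanocyte it was so for 3 of 8. The share over all genes tested was not counted.

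Keratins did not follow as a set. The 6 squamous suprabasal keratins averaged 6.06 and 6.24 in KO, against 6.03 and 6.10 in WT, and 0 of 6 passed. The 7 basal markers averaged 8.14 and 7.66 in KO, against 8.35 and 8.0 in WT, and 0 of 7 passed. Both KO arrays lay above both WT arrays for Krt6a, Krt10 and Krt15, and below them for Krt5, Krt13 and Krt14. The 8 markers of epidermis, hair follicle and melanocyte averaged 4.65 and 4.83 in KO, against 4.56 and 4.77 in WT. Flg was low on all 4 arrays, with 3.78 and 3.79 in KO, against 4.03 and 3.87 in WT. Rptn (0.29, adjusted p = 0.999) and Ivl (0.59, adjusted p = 0.999) did not pass.

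The large intestine calls depended on single arrays. Without KO replicate 2 the differences were 2.10 for Hrnr (adjusted p = 0.0031), 1.69 for Asprv1 (adjusted p = 0.0466) and 1.83 for Lor (adjusted p = 0.522). Without KO replicate 1 they were 5.32, 4.29 and 3.87. Without WT replicate 1 none of the 3 passed (Hrnr 3.66, adjusted p = 0.0869), and without WT replicate 2 these 3, Ppl (1.15) and Tgm3 (-2.48) passed. With only the 4 large intestine arrays none passed. WT replicate 1 stood apart for Tgm3, with 8.87 against 6.27 in WT replicate 2 and 6.54 and 6.24 in KO, and without it the Tgm3 difference was 0.12 in place of -1.18.

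**Figure D5:**
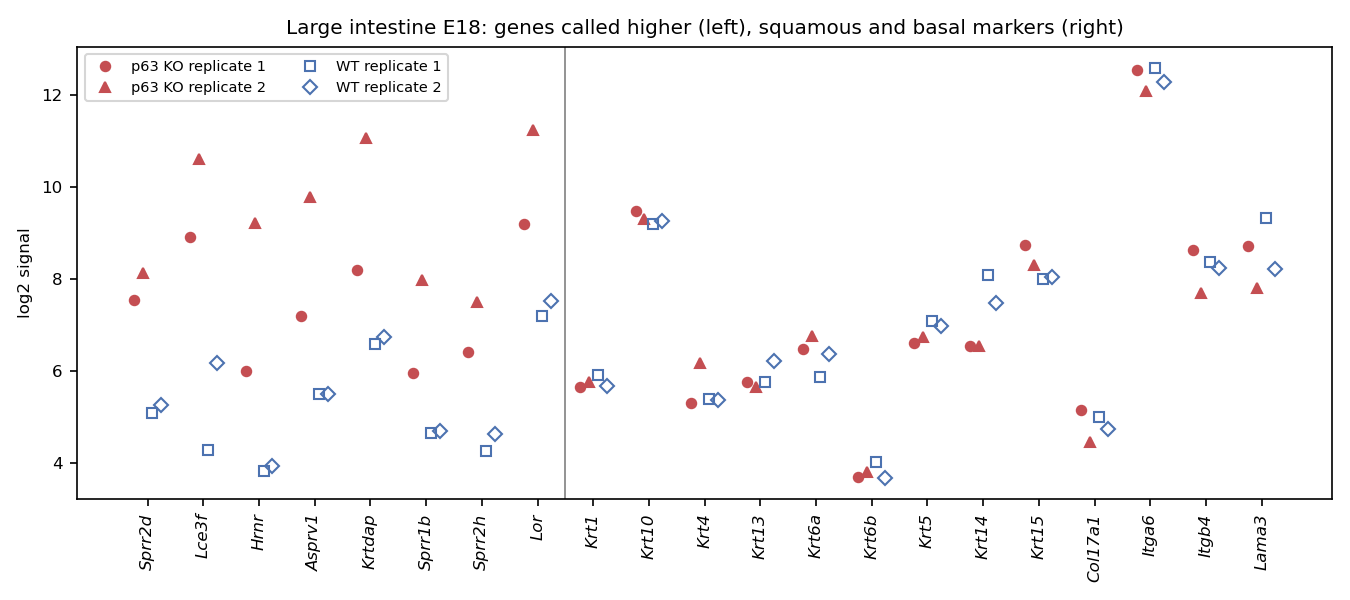
Log2 signal of the 4 large intestine arrays for the 8 genes that passed as higher in KO (left of the line) and for squamous and basal markers (right of it), with filled symbols for p63 KO replicates 1 and 2 and open symbols for WT replicates 1 and 2. KO replicate 2 was the highest array for each of the 8 genes, with Lor at 11.23. The markers on the right were mixed. Both KO arrays lay below both WT arrays for Krt5 (6.61 and 6.73, against 7.08 and 6.99), Krt13 and Krt14. They lay above them for Krt6a (6.48 and 6.76, against 5.87 and 6.37), Krt10 and Krt15.

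Across the 14 group means the members fell into different profiles. Evpl and Ppl ran together, with Pearson's r = 0.979, and 0.971 without WT proximal stomach, and Tgm1 with Ppl gave 0.906 and 0.913. Flg and Hrnr gave 0.928, but 0.05 without WT proximal stomach, so their likeness rests on that group. Rptn and Asprv1 gave 0.953 and, without it, 0.898. Ivl stood apart, with r between -0.17 and 0.50 to the other 9. The 14 means come from 28 arrays with shared normalization, and these values are a description.

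By the same measure over all genes tested, the genes most like each member were the following. They were Wfdc5 (0.998), Dsg1b and Lce1d for Flg, and Aox4 (0.987), Sprr1b and Calm4 for Hrnr. Flg read 3.57 to 4.08 in the 13 groups other than WT proximal stomach, so its values rest on that group. Hrnr was similarly low in all groups but WT proximal stomach and KO large intestine. Likeness to genes that are no members was not computed without WT proximal stomach. Slc28a3 (0.988), Tmprss11d and Cnfn were nearest to Rptn, and Irx2 (0.968), Tmprss11d and Cnfn to Asprv1. Lor was nearest to Klk10 (0.929), Sprr2h and Cyfip2, and Tgm3 to Tmprss11f (0.956), 2300002M23Rik and Calml3. Trim29 headed the list for Evpl (0.974, then Ppp1r13l and Kctd1) and for Ppl (0.979, then Ecm1 and Ppp1r13l), and Trex2 (0.983), Plekhn1 and Krt78 were nearest to Tgm1. Ivl was nearest to Entpd1 (0.961), Tmem200c and Popdc3.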

How the data were processed

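The authors deposited 1 log2 value per probe set and array, between 2.98 and 15.4. The tools, per the submitters' processing notes, were Affymetrix Expression Console and Partek. How background was corrected and arrays were normalized is not stated in the sources used here, and no further normalization was applied. Of 45101 probe sets, 64 controls were left out, 34945 carry 1 gene symbol, 932 several and 9160 none. A gene was its highest-mean probe set, among those above the array median on at least 2 arrays. limma 3.58.1 in R 4.3.3 fitted a mean per group over 28 arrays with a variance trend (14 residual and 6.19 prior degrees of freedom). The text names every member, the 3 genes most like each, and up to 4 genes per list with the largest change among those that passed. Some others are named for their direction or stage, or where none of a list passed. Members and lists were chosen with earlier results of these data known. The fit was tested on simulated data. Alternatives were other filters, median centring, quantile normalization, the mean of probe sets, array weights, a replicate block, an actin covariate, subsets of arrays and leaving out each array. The number of arrays limits precision. Knockout and wild-type arrays of one number deviated with a correlation of -0.13 (small intestine) to 0.28 (large intestine), so the numbers were not taken as pairs.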

Additional observations from a re-analysis of the deposited data

Results flagged for a closer look

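These results stand out because the knockout difference in 1 tissue or stage was tested against that in another and the 2 differed. Between proximal stomach and bladder E18 (KO minus WT in the first, minus KO minus WT in the second) the difference was -9.04 for Flg, -9.42 for Hrnr, -6.52 for Lor, -1.99 for Ivl, -1.21 for Evpl, -1.77 for Tgm1, -3.49 for Tgm3 and -2.59 for Asprv1, with limma's adjusted p of 1.5e-17 for Flg and 9.98e-09 for Hrnr with no filter on low values, and between 9.2e-07 and 0.0082 for the other 6. Flg, Hrnr, Tgm3 and Asprv1 lay below the array median on all 12 bladder arrays, and Lor did on both WT bladder E18 arrays (7.06 and 7.17). This limits what a fall in bladder could show for these genes. For Ppl, bladder E18 minus bladder E15 was -1.36 (adjusted p = 0.0207), at stages where actin 3' minus 5' was 1.33 and 1.12 in KO E15, against 0.69 and 0.78 in WT E15. For Ivl, bladder E19 minus bladder E18 was -1.82 (adjusted p = 0.0180).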

How the results depend on the processing

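No result changed direction while called. Of 963 values of 71 gene results under other settings, 912 kept their side of the threshold, 44 lost the call and 7 gained it. Members called moved as follows. For KO minus WT in bladder E19 there were 2 in place of 1 with the 75th percentile filter, median centring, the mean of probe sets, array weights and only the arrays compared. For WT bladder E19 minus E18 there were 2 in place of 1 with median centring, quantile normalization and only the arrays compared, and 0 with the mean of probe sets. The E19 minus E18 change of the knockout difference had 0 in place of 1 with the mean of probe sets. The actin covariate gave 6 in place of 9 for KO minus WT in proximal stomach (without Rptn, Evpl and Asprv1), 0 in place of 3 for KO minus WT in bladder E15, 1 in place of 2 for KO bladder E18 minus E15, and 0 in place of 1 for the E18 minus E15 change of the knockout difference. Array weights gave 8 in place of 9 in proximal stomach (without Evpl) and 2 in place of 3 in large intestine (without Lor). With only the arrays compared, bladder E18 had 0 in place of 1 and large intestine 0 in place of 3. The cause was not tested. Leaving out 1 array gave 2 to 3 in bladder E15, 0 to 1 in bladder E18, 1 in bladder E19, 7 to 9 in proximal stomach, 0 in distal stomach and small intestine, 0 to 5 in large intestine, 10 for WT proximal stomach against distal stomach and against bladder E18, 5 for WT bladder E18 minus E15, 1 to 2 for WT E19 minus E18, 1 to 2 for KO E18 minus E15, 2 to 3 for KO E19 minus E18, 6 to 7 for KO proximal minus WT distal stomach, 8 to 9 for proximal stomach minus bladder E18, and 0 to 1 for each of the 2 changes of the knockout difference between bladder stages. With the replicate block proximal stomach kept 9 calls, bladder E15 3 and large intestine 3, and no count moved. Members near 4 on the log2 scale are at the low end of the signal, which limits what a fall could show.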
